A study of Mus musculus with 2 samples.

Results

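The late envelope genes are 34 of the 32285 genes counted in single cells of mouse tongue epithelium. They were chosen by symbol: every gene whose name starts with Lce1 or Lce3 (14 and 6 genes), the S100-fused genes Flg, Flg2, Hrnr, Rptn, Tchh, Tchhl1 and Crnn, the envelope precursors Lor, Ivl, Crct1, Cnfn and Kprp, and Cdsn and Asprv1. The cells came from the tongue epithelium of male B57BL/6 mice aged 8 to 12 weeks. One group was collected at ZT0 and the other at ZT12, where ZT (zeitgeber time) counts hours from the onset of light. The tissue was digested with TrypLE Express, live cells were sorted by exclusion of the dye 7-AAD, and each time is 1 library of the 10x Genomics 3′ kind. The number of mice behind a library is not given, and neither library carries a mutation or a treatment in its labels.

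As a keratinocyte dies at the surface of a stratified epithelium, transglutaminases cross-link small soluble precursors into a protein shell, the cornified envelope, beneath the cell membrane. Most of the precursors are encoded in one gene cluster, the epidermal differentiation complex: loricrin, involucrin, the small proline-rich and late cornified envelope proteins, and the S100-fused proteins, which join a calcium-binding domain to long repeats. Filaggrin and trichohyalin of the S100-fused family gather in granules and bind keratin filaments, trichohyalin being best known from the inner root sheath of the hair follicle. On the tongue, the hard filiform papillae use hair keratins and the tissue between and below them uses mucosal keratins, so the same envelope genes can be followed through more than one programme of differentiation.

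In the mm10 annotation (GENCODE M21), 31 of the 34 genes lay on chromosome 3 between 92080271 and 93471980, a stretch of 1391.709 kb that runs from Lor (chr3:92080271-92083142, minus strand) past Ivl, the LCE genes and Crct1 to Crnn, Flg2, Flg, Hrnr, Rptn, Tchh and Tchhl1. Asprv1 lay on chromosome 6, Cnfn on chromosome 7 and Cdsn on chromosome 17. The promoters below are from RefSeq (GRCm38.p6), 250 bases before to 50 after the annotated start. They are shown because Flg, Rptn, Crnn and Tchh had their highest level of any named class in one group of cells, and Lor and Cnfn in another. Capitals mark TGANTCA, the AP-1 motif, and TATAAA, the TATA motif, searched on both strands; the marked sites do not overlap. AP-1 is the factor family of Fos and Jun proteins, and a TATA box helps to place the start of transcription.
Flg chr3:93273296-93273595, plus strand: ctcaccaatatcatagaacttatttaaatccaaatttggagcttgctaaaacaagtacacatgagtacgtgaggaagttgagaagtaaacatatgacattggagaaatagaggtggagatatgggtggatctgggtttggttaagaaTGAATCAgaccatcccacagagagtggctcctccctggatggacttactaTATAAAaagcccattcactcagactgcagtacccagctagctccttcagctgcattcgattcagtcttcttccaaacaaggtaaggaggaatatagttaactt
Rptn chr3:93393449-93393748, plus strand: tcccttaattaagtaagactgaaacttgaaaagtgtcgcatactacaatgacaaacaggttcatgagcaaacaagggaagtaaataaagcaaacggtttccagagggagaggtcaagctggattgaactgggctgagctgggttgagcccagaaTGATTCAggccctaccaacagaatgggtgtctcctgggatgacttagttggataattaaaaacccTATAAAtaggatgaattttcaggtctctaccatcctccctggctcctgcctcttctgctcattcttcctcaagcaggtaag
Crnn chr3:93144539-93144838, plus strand: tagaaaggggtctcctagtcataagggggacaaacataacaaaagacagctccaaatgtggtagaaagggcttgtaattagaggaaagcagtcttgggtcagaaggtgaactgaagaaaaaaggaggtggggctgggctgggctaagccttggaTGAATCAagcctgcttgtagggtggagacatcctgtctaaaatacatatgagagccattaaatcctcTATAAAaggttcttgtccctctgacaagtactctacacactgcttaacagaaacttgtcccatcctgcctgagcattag
Tchh chr3:93442080-93442379, plus strand: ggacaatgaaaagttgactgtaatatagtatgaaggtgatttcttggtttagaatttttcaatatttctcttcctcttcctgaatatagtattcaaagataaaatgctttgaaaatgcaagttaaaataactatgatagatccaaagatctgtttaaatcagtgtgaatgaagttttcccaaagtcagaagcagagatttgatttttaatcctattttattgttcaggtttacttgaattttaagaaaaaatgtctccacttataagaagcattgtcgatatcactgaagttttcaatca
Lor chr3:92083093-92083392, minus strand: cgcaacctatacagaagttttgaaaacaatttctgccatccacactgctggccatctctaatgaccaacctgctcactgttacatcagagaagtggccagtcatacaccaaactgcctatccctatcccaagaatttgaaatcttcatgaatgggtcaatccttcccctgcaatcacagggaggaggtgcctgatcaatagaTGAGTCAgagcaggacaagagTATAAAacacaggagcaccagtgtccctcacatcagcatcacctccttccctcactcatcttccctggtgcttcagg
Cnfn chr7:25369675-25369974, minus strand: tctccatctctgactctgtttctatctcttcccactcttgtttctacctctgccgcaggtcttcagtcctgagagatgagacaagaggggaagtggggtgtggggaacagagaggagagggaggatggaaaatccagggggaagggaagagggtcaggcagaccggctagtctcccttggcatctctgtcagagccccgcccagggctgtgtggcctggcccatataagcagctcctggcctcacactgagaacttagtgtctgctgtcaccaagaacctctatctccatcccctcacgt

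Flg, Rptn and Crnn each held 1 AP-1 match followed by 1 TATA match. The AP-1 match began 103, 96 and 96 bases before the start in Flg, Rptn and Crnn, and the TATA match 53, 31 and 29 bases before it. Lor held the same pair closer in, with first bases at -48 and -27, and Ivl, not printed, at -116 and -29. Tchh and Cnfn held neither motif in the window. From the annotated start the printed Tchh letters begin with atg, the letters of a start codon. An untranslated first exon may thus be missing from that annotation, so whether Tchh shares the motifs cannot be told from this window. Of the 34 genes, 31 had an entry (32 promoters): 7 promoters (21.9%) held TGANTCA and 9 (28.1%) held TATAAA, against 7.81% and 13.6% of all 32817 mouse promoters in the table. CACGTG, the E-box that clock proteins can bind, stood in 1 of the 32 (3.13%, in Lce3a), against 7.15% of all promoters. A match is a description of the letters and not evidence of binding.

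The libraries held 1726 (ZT0) and 2819 (ZT12) barcodes, of which 1593 and 2620 were kept as cells with 49256011 and 67059151 UMIs (unique molecular identifiers, each standing for 1 captured transcript). The median was 28401 and 23088 UMIs per cell, and the libraries shared 2 barcodes. Cells were clustered without the 34 genes, so that none of them could define the cells it is described in. The groups named next are those in which the genes were chiefly read. The Krt76 cells (1 cluster, 108 and 182 cells) are called by their leading gene: they had 3114 and 2585 CPM (counts per 1000000 UMIs of the same cells) of Krt76, a keratin of oral epithelium, against 6.29 and 5.19 CPM in basal-like cells. A minority of them carried that level: 50 of the 108 and 62 of the 182 had a Krt76 UMI (46.3% and 34.1%, against 7.43% and 8.13% of basal-like cells), and 74.0% and 88.2% of the UMIs lay in a sub-group of 18 and 28 cells. The other 90 cells at ZT0 had 1033 CPM and the other 154 at ZT12 had 383 CPM, beside the 1000 CPM by which the cluster was named. By the counts of cells with a UMI, most cells of the cluster lacked a read of the gene they are called by. The cornifying-like cells (1 cluster, 43 and 106 cells) had 2399 and 1842 CPM of the protease inhibitor gene Serpinb12 and 66.2 and 152 CPM of the basal keratin gene Krt5. The filiform-like cells (2 clusters, 144 and 246 cells) had 4986 and 5275 CPM of the hair keratin gene Krt36. Immune-like cells numbered 21 and 9, and the other named classes were epithelial, as the tissue label says.

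With 1 library per time there is no replicate and no test between ZT0 and ZT12. The intervals given are 95% intervals that cover counting error only, cells of a library are not replicates, and a difference between the libraries cannot be told apart from a difference between mice or preparations. A gene is called higher at one time when its mean over the libraries was at least 5 CPM, its CPM + 1 differed at least 2-fold and the interval of the ratio left out 1.

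Of the 34 genes, 32 had at least 1 UMI in some barcode and 25 in a cell, and 11 had at least 50 UMIs in cells. In cells they gave 18836 UMIs at ZT0 and 21970 at ZT12. Lce1m and Lce3d had none in any barcode. The 11 were Lor, Ivl, Kprp, Crct1 and Cnfn of the precursors, Tchh, Flg, Rptn and Crnn of the S100-fused genes, Asprv1, and of the 20 LCE genes only Lce3c. Among the genes with fewer UMIs, Cdsn, which encodes the corneodesmosin that holds cornified cells together, had 21 and 16 UMIs. Flg2, a filaggrin-like gene, had 6 and 1 UMIs, and the hornerin gene Hrnr and Tchhl1 each had 3 and 1.

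**Figure D1:**
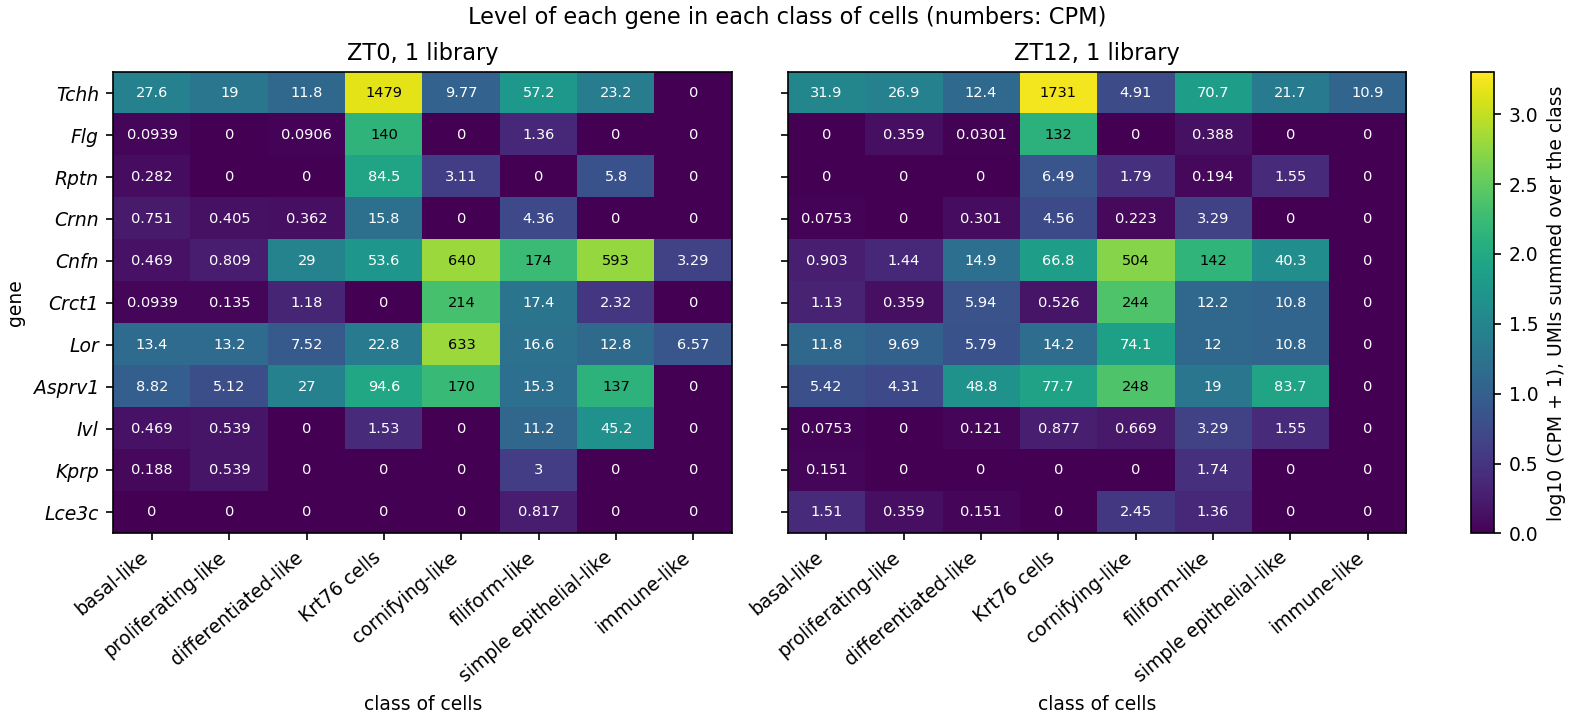
Level of each gene with at least 50 UMIs (rows) in each class of cells (columns) at ZT0 (left) and ZT12 (right); colour is log10 of CPM + 1 and the printed number is the CPM of UMIs summed over the class in 1 library. Tchh and Flg stand highest in the Krt76 cells (1479 and 1731 CPM of Tchh, 140 and 132 CPM of Flg), and Crct1 in the cornifying-like cells; the low-UMI and unnamed clusters are not drawn.

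Flg was read almost wholly in the Krt76 cells. These cells held 640 of its 656 UMIs at ZT0 (97.6%) and 754 of 760 at ZT12 (99.2%), while holding 9.27% and 8.51% of all UMIs. The cornifying-like cells had 0 Flg UMIs at both times (the exact interval reaches up to 1.64 CPM at ZT0). Filiform-like cells had 5 and 2 UMIs. Within the Krt76 cells Flg stood at 140 and 132 CPM in the ZT0 and ZT12 libraries (ratio 0.944, 0.848 to 1.05), which did not differ beyond counting error. Thinned to 5000 UMIs per cell, Flg was detected in 20% of Krt76 cells at ZT0 (12.8 to 28.9%, 21 of 105) and 15.2% at ZT12 (10.2 to 21.3%, 27 of 178). Before thinning the shares were 36.1% and 31.9%. Basal-like cells, with median depths of 22490 and 18099 UMIs against 41527.5 and 29758.5 in Krt76 cells, gave 0 of 469 and 0 of 717 after thinning.

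Tchh, the trichohyalin gene, had its highest level in the same cells, with lower counts in other classes. Krt76 cells held 85.6% of its UMIs at ZT0 and 87.3% at ZT12, at 1479 and 1731 CPM (ratio 1.17, 1.13 to 1.21). Filiform-like cells, had 57.2 and 70.7 CPM. Most of that lay in the smaller of the 2 filiform clusters, which had 135 and 220 CPM against 21.1 and 18.6 CPM in the larger one. Basal-like cells had 27.6 and 31.9 CPM, and cornifying-like cells less, at 9.77 and 4.91 CPM. After thinning, Tchh was detected in 63.8% and 51.1% of Krt76 cells and in 13.2% and 13.3% of basal-like cells. In the cornifying-like cells it was detected in 4.76% and 3.92%, and in 0 of 17 immune-like cells at ZT0, which limits cells with a UMI at this depth to 19.5%. Counts were not corrected for free RNA, and its part in the low Tchh levels outside Krt76 cells was not tested. At ZT12 the interval of the cornifying-like share (1.08 to 9.74%) lay below that of the basal-like share (10.9 to 16.0%).

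Rptn and Crnn also had their highest level among the named classes in Krt76 cells, and these were the S100-fused genes that met the size rule between the libraries there. Rptn encodes repetin, a minor envelope protein, and Crnn encodes cornulin, a protein of squamous epithelia such as the oesophagus. Krt76 cells held 386 of 534 Rptn UMIs at ZT0 and 37 of 47 at ZT12, which is 84.5 and 6.49 CPM (13.03 times higher at ZT0, 9.28 to 18.8). Crnn had 72 and 26 UMIs in these cells, which is 15.8 and 4.56 CPM (3.46 times higher at ZT0, 2.18 to 5.64). Of the 7 genes of the set that reached 5 CPM in Krt76 cells, these 2 were called higher at ZT0 and none at ZT12, where 0.619% and 0.355% of all 8729 genes were. One cell carried much of both differences: it held 317 of the 534 Rptn UMIs of the ZT0 library (59.4%) and 35 of the 118 Crnn UMIs. Without the cell of each library richest in the gene, Rptn was still called higher at ZT0 in Krt76 cells and Crnn was not, its log2 ratio of ZT12 over ZT0 going from -1.59 to -0.92. Rptn then stood at 15.4 and 4.60 CPM. The antisense gene Gm37857 overlaps exons of Rptn, and the sources used here do not say whether the counting used strand.

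**Figure D2:**
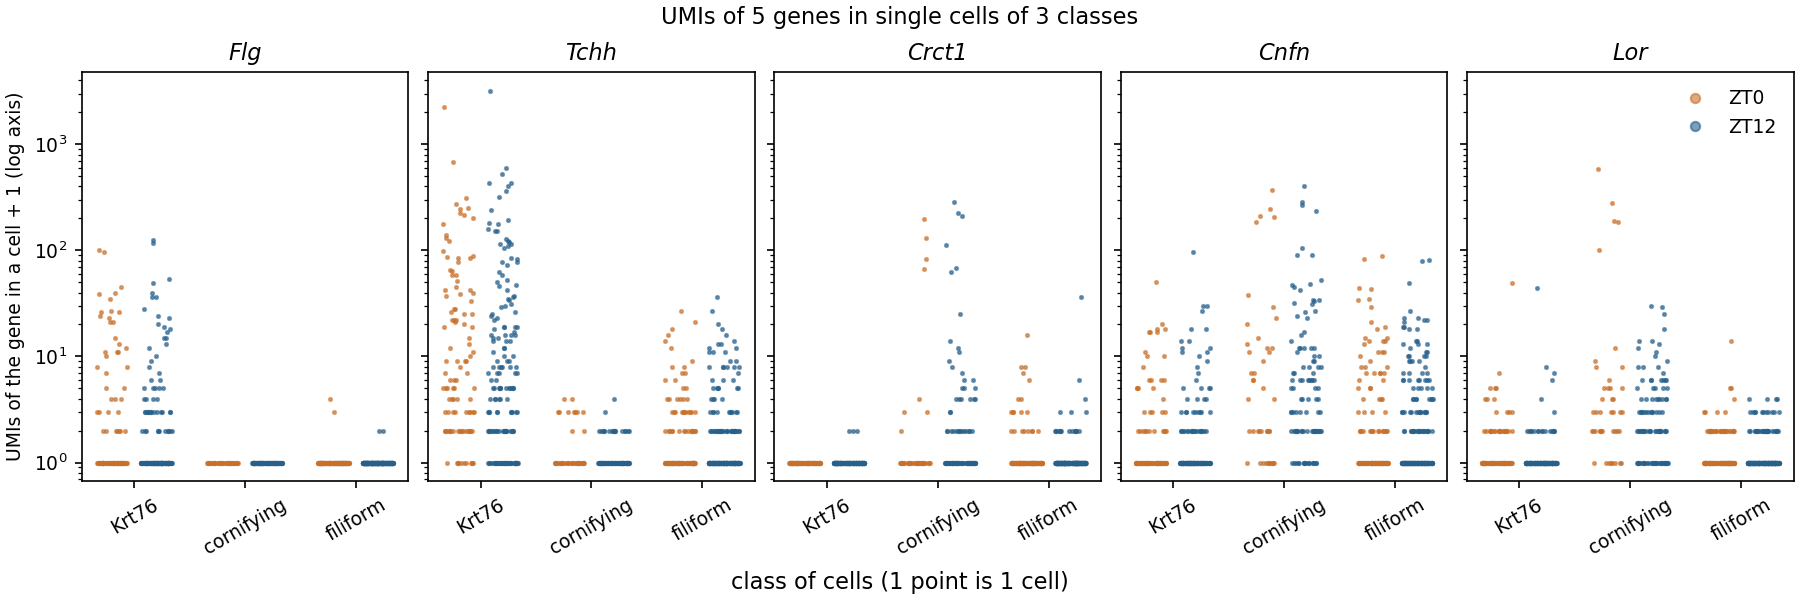
UMIs + 1, on a log axis, of Flg, Tchh, Crct1, Cnfn and Lor in single cells of the Krt76, cornifying-like and filiform-like classes at ZT0 (orange) and ZT12 (blue), each point 1 cell. Tchh reached 2255 UMIs in 1 cell at ZT0 and 3190 in 1 at ZT12, and no cell with at least 10 Tchh UMIs had 10 of Crct1.

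The S100-fused genes were concentrated in few of the Krt76 cells. At ZT0 and ZT12, 6 and 7 cells held 50% of the Tchh UMIs of a whole library, 6 and 5 cells those of Flg, and 1 and 3 cells those of Rptn. The richest ZT0 cell (75179 UMIs) had 2255 of Tchh, 317 of Rptn, 35 of Crnn, 48 of Lor and 7 of Flg. The richest ZT12 cell (75091 UMIs) had 3190 of Tchh, 117 of Flg, 43 of Lor and 0 of Rptn. These cells thus shared a very high Tchh count and differed in which other S100-fused gene went with it. Both were rich in Krt76 itself, with 2513 and 3308 UMIs. The 10 cells richest in the 34 genes held 43.2% and 38.7% of their UMIs, and 9 and 8 of the 10 had more than 2 times their library's median UMI count. Their highest doublet scores, 0.0988 and 0.0688, lay below the 95th percentiles of 0.109 and 0.110; the part of doublets in these values was not tested further.

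**Figure D3:**
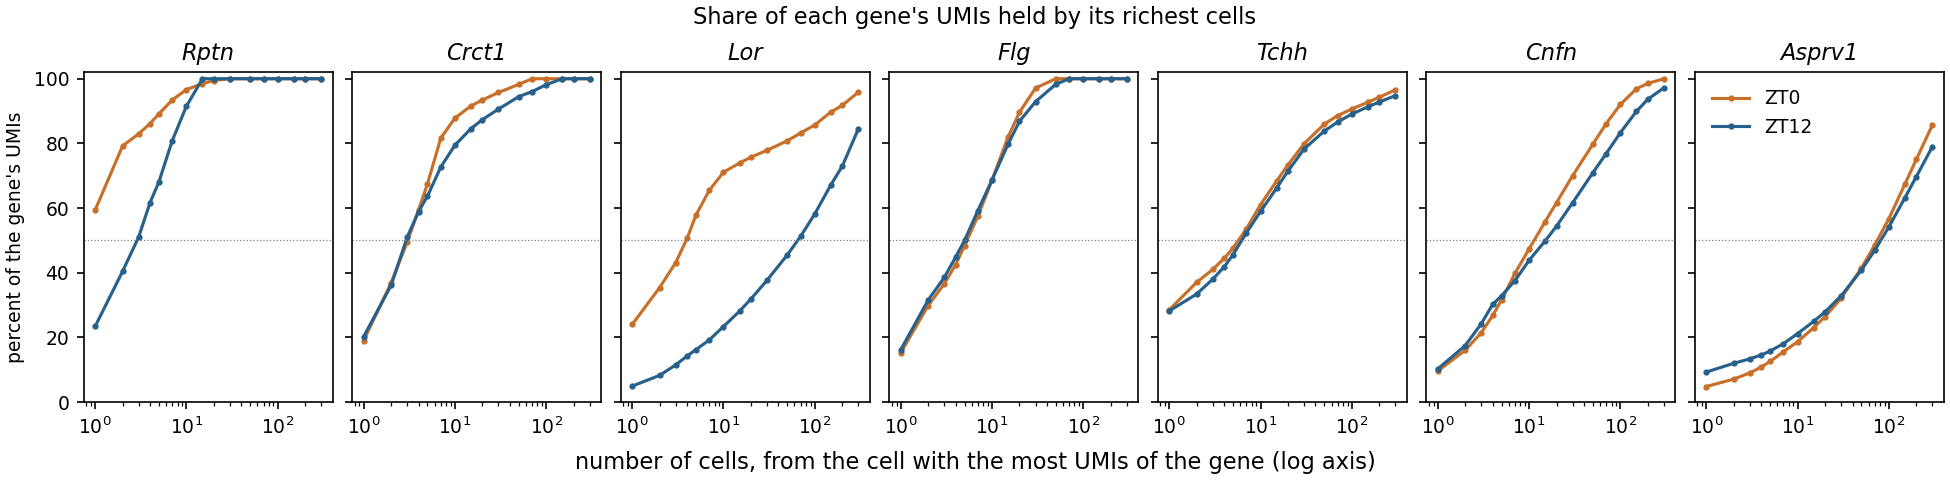
Cumulative percent of the UMIs of each of 7 genes held by its richest cells, against the number of cells on a log scale, for each library. Rptn at ZT0 starts at 59.4% in 1 cell, and Lor rises steeply at ZT0 (71.1% in 10 cells) and slowly at ZT12 (23.4% in 10 cells).

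Within the Krt76 cluster, Flg went with a higher level of Tchh and Rptn. For this description, chosen after the values were seen, 32 and 47 cells with at least 2 Flg UMIs were set beside 69 and 124 cells with 0. Tchh stood at 3032 against 378 CPM at ZT0 and at 4471 against 280 CPM at ZT12. Of the Tchh UMIs of the cells with Flg, 1 cell held 2255 of 5434 at ZT0 and 1 held 3190 of 8371 at ZT12. The median cell had 60.5 against 2 Tchh UMIs at ZT0 and 45 against 1 at ZT12. Rptn stood at 211 against 2.83 CPM (35.5 CPM without the 1 cell that held 317 of its 378 UMIs) and at 14.96 against 2.33 CPM. Both genes were higher in the cells with Flg in each library. Among genes outside the set, Krt76 had 6563 against 481 CPM and 6594 against 300 CPM, and Slurp1, which encodes a secreted protein of differentiated keratinocytes, 572 against 38.8 and 588 against 34.3 CPM. The Krt76 sums were uneven: 22 of 32 and 33 of 47 cells with Flg had a Krt76 UMI. Their medians were 5 and 7 UMIs, against 0 in the cells without Flg, and 1 cell had 2513 at ZT0 and 1 had 3308 at ZT12. The keratin gene Krt15, a gene of basal cells, went the other way, with 272 against 2399 and 486 against 3134 CPM. The basal keratin gene Krt5 did so too, with 1928 against 5055 and 1047 against 3118 CPM. Krt14, also a basal keratin gene, did not follow them: it had 4235 against 3063 CPM at ZT0 and 4001 against 4420 CPM at ZT12. The cells with Flg also had more UMIs in all, with medians of 54230 against 36637 and 42441 against 27220.5, and the part of depth in these differences was not tested. At a finer clustering (Leiden resolution 1.5), a sub-group of 18 and 28 of these cells held 73.4% and 77.3% of the cluster's Tchh UMIs and 78.0% and 86.5% of its Flg UMIs.

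Crct1, which encodes a cysteine-rich protein of the same gene complex, was read in other cells. Krt76 cells had 0 of its UMIs at ZT0 and 3 at ZT12. Cornifying-like cells held 483 of 1035 UMIs at ZT0 (46.7%) and 1094 of 1407 at ZT12 (77.8%), at 214 and 244 CPM (ratio 1.14, 1.02 to 1.27). Without the Sprr3-rich cells described below, it was 2.84 and 86.8 CPM. At ZT0 a further 32.9% lay in clusters that took no name. In that library 341 UMIs were in the cluster led by Chil4 and interferon-response genes, which had 162 cells at ZT0 and 2 at ZT12. Filiform-like cells had 17.4 and 12.2 CPM. Few cells made up these sums: 4 and 3 cells held 50% of a library's Crct1 UMIs, the richest having 197 and 285. No cell in either library had 10 or more UMIs of both Crct1 and Tchh (11 and 15 cells had that many of Crct1, 62 and 85 of Tchh), or of both Crct1 and Flg. By contrast 18 of 19 cells at ZT0 and 17 of 18 at ZT12 with that many Flg UMIs also had that many of Tchh.

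Cnfn, the cornifelin gene, was read in all 3 late classes. Its level was 640 and 504 CPM in cornifying-like cells, 174 and 142 CPM in filiform-like cells and 53.6 and 66.8 CPM in Krt76 cells. After thinning it was detected in 35.7% and 44.1% of cornifying-like cells and in 26.2% and 24.0% of filiform-like cells. Basal-like cells gave 0 of 469 (up to 0.783%) and 0.697%. No late class as a whole differed 2-fold between the times. The ratio of ZT12 over ZT0 was 0.788 (0.737 to 0.842) in cornifying-like, 0.819 (0.735 to 0.912) in filiform-like and 1.25 (1.06 to 1.47) in Krt76 cells. In cornifying-like cells the direction turned, to 127 and 307 CPM, when the cells richest in Sprr3 described below were left out. A small class that resembled simple epithelium stood apart, with 511 Cnfn UMIs at ZT0 and 26 at ZT12 in 35 cells each. That is 593 and 40.3 CPM (14.7 times higher at ZT0, 9.92 to 22.7). The 511 UMIs lay in 12 cells, 1 of which had 149. That class was unlike at the times in other genes: Krt14 stood at 19997 and 8662 CPM, Krt13 at 504 and 2245 CPM, the precursor gene Sprr1a at 1459 and 253 CPM and Hopx at 1369 and 415 CPM. The part of this in the Cnfn and Ivl values was not tested. In the same class Ivl had 39 UMIs at ZT0, in 14 cells, and 1 at ZT12. Both were called higher at ZT0 and no gene of the set at ZT12; of all 9904 genes compared in that class, 4.43% and 6.3% were.

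Lor, the gene of loricrin, the main envelope protein of skin, was low in most epithelial classes and very high in a few ZT0 cells. In cornifying-like cells it had 1426 UMIs in 43 cells at ZT0 and 332 UMIs in 106 cells at ZT12, or 633 and 74.1 CPM, an excess of 8.55 times (7.58 to 9.66). It was the 1 gene called higher at ZT0 of the 5 genes of the set that reached 5 CPM there, and none was called higher at ZT12; 1.43% and 1.23% of all 8294 genes were. In the other named epithelial classes the levels ran from 5.79 to 22.8 CPM. Krt76 cells had 22.8 and 14.2 CPM, filiform-like cells 16.6 and 12.0 CPM and basal-like cells 13.4 and 11.8 CPM. After thinning, Lor was detected in 31.0% and 23.5% of cornifying-like cells and 9.17% and 5.58% of basal-like cells, so the share of cornifying-like cells with Lor differed between the times far less than the summed level. The intervals of those shares, 17.6 to 47.1% and 15.7 to 33.0%, overlapped.

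Much of the Lor sum at ZT0 lay in the cells with the most Sprr3, a small proline-rich precursor gene of mucosal envelopes. This was seen only after the values were known: 7 cells at ZT0 and 4 at ZT12 had at least 20 Sprr3 UMIs, and they held 57.5% of all Lor UMIs at ZT0 and 8.99% at ZT12. At ZT0, 5 of the 7 were cornifying-like and 2 were in the cluster led by Chil4, and all 4 at ZT12 were cornifying-like. Their Lor counts were 12, 587, 189, 183, 279, 55 and 100 at ZT0 and 9, 24, 17 and 28 at ZT12. These cells were of unlike depth, with 68849 to 160482 UMIs at ZT0 and 41211 to 75450 at ZT12, so they are compared per UMI. Summed over the cells, Lor was 2136 and 325 CPM, and by single cells it ran from 123 to 6896 CPM at ZT0 and from 164 to 679 CPM at ZT12. All ZT0 cells but the lowest lay above every ZT12 cell. Crct1 and Cnfn went the other way in the sums, with 1131 and 3027 CPM of Crct1 and 2203 and 3982 CPM of Cnfn. By single cells, Crct1 ran from 18.7 to 2687 CPM at ZT0, and 3 of the 4 ZT12 cells (2956, 3825 and 4174 CPM) lay above all of these while the other had 194 CPM. Cnfn ran from 658 to 2890 CPM at ZT0, and the same 3 ZT12 cells (3115, 7394 and 3925 CPM) lay above these while the other had 1116 CPM. Asprv1, too, was higher in the ZT12 sum, at 413 and 1793 CPM, but 1 ZT12 cell held 323 of the 430 UMIs (5883 CPM). The other ZT12 cells had 615, 623 and 437 CPM, within the ZT0 range of 129 to 1301 CPM.

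**Figure D4:**
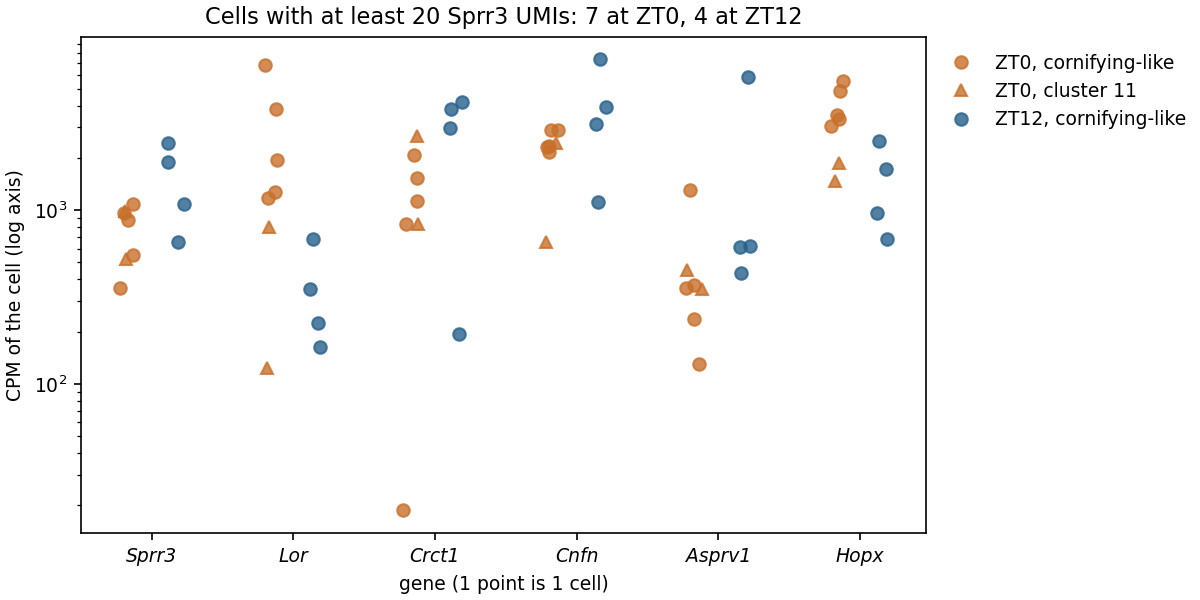
CPM of Sprr3, Lor, Crct1, Cnfn, Asprv1 and the regulator gene Hopx, on a log axis, in the 7 cells at ZT0 (orange) and 4 cells at ZT12 (blue) with at least 20 Sprr3 UMIs, each point 1 cell and triangles the cells of the cluster led by Chil4 (cluster 11). Lor runs from 123 to 6896 CPM at ZT0 and from 164 to 679 CPM at ZT12, and 3 of the 4 ZT12 cells lie above every ZT0 cell in Crct1 and Cnfn. The cells come from 1 library per time and are not replicates.

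The other cornifying-like cells, 38 and 102, had 49.99 and 59.9 CPM of Lor (88 and 254 UMIs). The excess at ZT0 was thus not seen without the Sprr3-rich cells (log2 ratio 0.26, from -3.08). No interval is given for that ratio, and Lor was not called in these cells. In these cells Crct1 stood at 2.84 and 86.8 CPM and Cnfn at 127 and 307 CPM. Both met the rule for higher at ZT12, the log2 ratios being 4.51 and 1.27. The share of all genes that met it in these cells was not computed. The cells left were also unlike in Sprr3 itself, at 0.568 and 9.20 CPM. At ZT12, 1 cell held 111 of the 368 Crct1 UMIs and 1 held 284 of the 1303 Cnfn UMIs. The keratins of the whole cornifying-like class were unlike at the times as well: Krt76 stood at 564 and 9.15 CPM and Krt16, a keratin gene of filiform and stressed epithelium, at 15.5 and 456 CPM. The part of these cell differences in the Lor result was not tested.

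Ivl and Kprp were read more in filiform-like cells than in the other late classes, though with few UMIs. Ivl, the gene of involucrin, an early scaffold of the envelope, had 41 UMIs in 24 filiform-like cells at ZT0 and 17 UMIs at ZT12. That is 42.3% and 53.1% of its UMIs and 11.2 and 3.29 CPM (3.39 times higher at ZT0, 1.88 to 6.36). It was the 1 gene called higher at ZT0 of 6 that reached 5 CPM in these cells, and none was called higher at ZT12; 0.673% and 0.618% of all 9062 genes were. After thinning, Ivl was detected in 3.55% of these cells at ZT0 and 0.420% at ZT12, levels near that of single UMIs. Kprp, the gene of a proline-rich keratinocyte protein, had 11 and 9 UMIs in filiform-like cells, 0 in Krt76 cells and 0 in cornifying-like cells.

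Asprv1 was the most evenly spread of the 11 genes: 75 and 82 cells held 50% of its UMIs. It encodes a retroviral-like aspartic protease that cuts profilaggrin in skin. Its level was 170 and 248 CPM in cornifying-like cells and 94.6 and 77.7 CPM in Krt76 cells, where its substrate gene Flg was read. Filiform-like cells had 15.3 and 19.0 CPM and basal-like cells 8.82 and 5.42 CPM. In the differentiated-like cells it had 27.0 and 48.8 CPM (ratio 1.81, 1.60 to 2.05), short of the 2-fold limit. Different clusters made up that class at the times: cluster 10, with 63.0 and 152 CPM of Asprv1, had 8 of the 305 cells at ZT0 and 161 of the 1080 at ZT12, and cluster 4, with 73.9 and 39.3 CPM, had 32 and 259. Inside the class Cnfn went opposite ways, with 47.4 and 23.01 CPM in cluster 0 and 4.30 and 12.5 CPM in cluster 4. In the class as a whole, 4 genes of the set reached 5 CPM and none was called. Of all genes there, 0.681% and 0.804% were called higher at ZT0 and ZT12. None was called of the 3 that reached 5 CPM in basal-like cells (1.03% and 0.605% of all genes). The same held for the 2 that did in proliferating-like cells (4.6% and 2.58%). The rest of the 34 were below that level in these classes and could not be called. These classes, too, changed clusters: of the basal-like, cluster 3 had 8 and 347 cells and cluster 8 had 218 and 7, and of the proliferating-like, cluster 9 had 185 and 28 and cluster 14 had 16 and 89.

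Summed over all cells, 7 of the 34 genes reached 5 CPM, and Lor and Rptn were called higher at ZT0. Summed Lor was 49.6 and 12.9 CPM, 3.83 times as much in the ZT0 library (3.55 to 4.15), and Rptn was 10.8 and 0.701 CPM (15.5 times, 11.5 to 21.3). No gene of the set was called higher at ZT12. Over all 9543 genes, 2.49% were called higher at ZT0 and 0.283% at ZT12. The other 5 genes had ratios of ZT12 over ZT0 between 0.752 (Cnfn, 78.2 and 58.8 CPM) and 1.30 (Asprv1, 39.9 and 51.7 CPM). Tchh stood at 160 and 169 CPM and Crct1 at 21.01 and 20.98 CPM. The median log2 ratio of the 7 was -0.22, against -0.03 over all genes tested. Without the 10 cells of each library richest in the gene, neither Lor nor Rptn was called: Lor then had 14.5 and 10.01 CPM. Without the Sprr3-rich cells Lor had 21.4 and 11.8 CPM and was not called. Without the single richest cell of each library, Rptn fell under 5 CPM on average, at 4.41 and 0.537 CPM, and it did so too without cells under 5000 UMIs (8.25 and 0.703 CPM). The classes took different shares of the libraries, cornifying-like cells making up 2.70% of cells at ZT0 and 4.05% at ZT12 and Krt76 cells 6.78% and 6.95%.

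**Figure D5:**
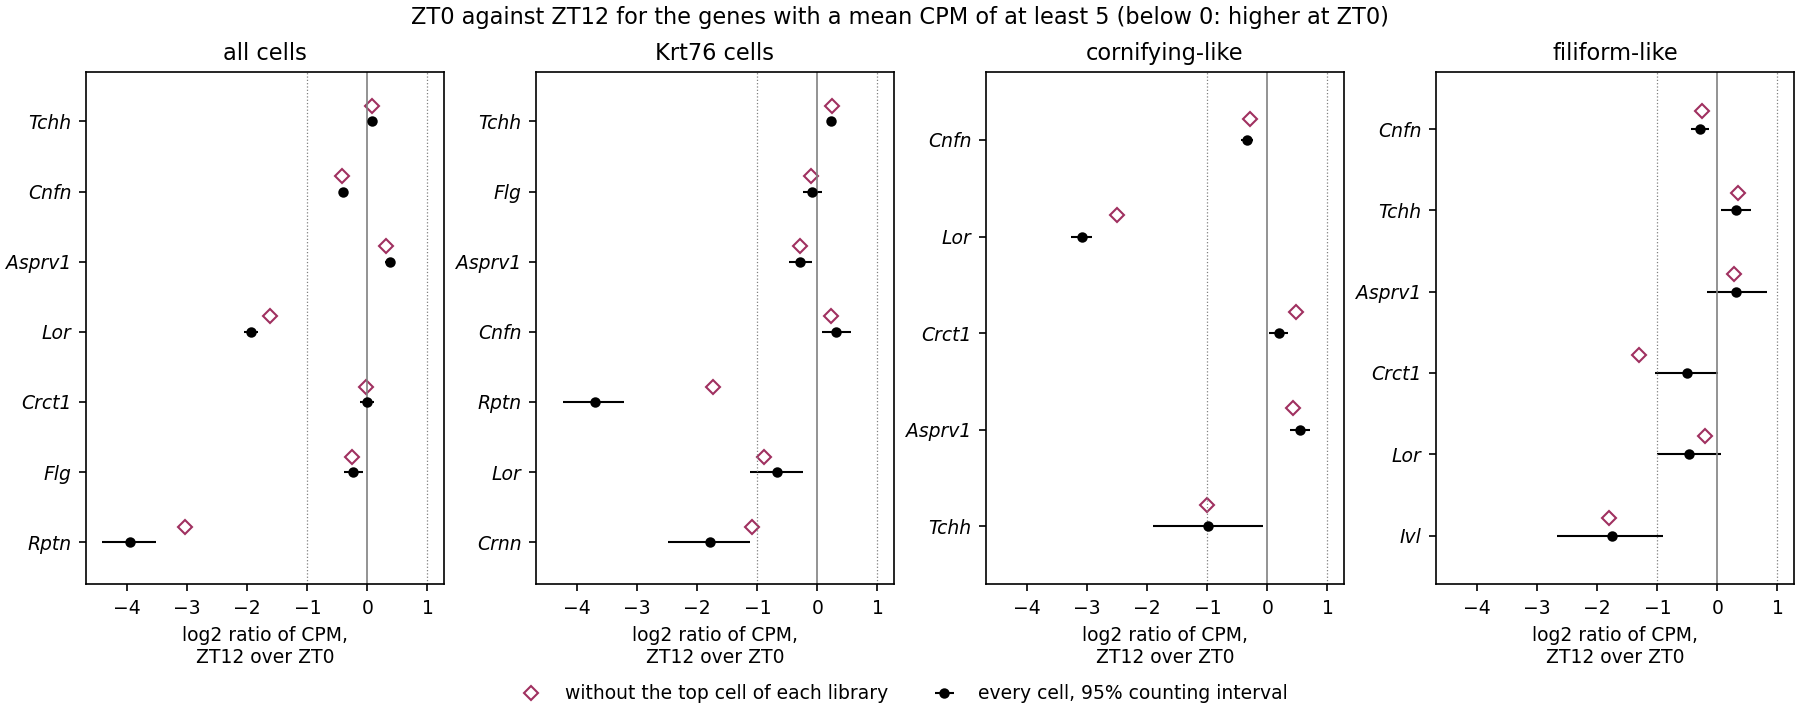
Log2 ratio of plain CPM, ZT12 over ZT0, for the genes with a mean of at least 5 CPM in all cells and in the late classes; filled points with bars are all cells of the group with the 95% counting interval, open diamonds leave out the cell of each library richest in the gene. Lor, Rptn, Crnn and Ivl, the genes called in a panel, lie on the ZT0 side, and Rptn moves most without its richest cell. Ratios not called lie on both sides. Cnfn is on the ZT0 side in all cells, cornifying-like and filiform-like cells and on the ZT12 side in Krt76 cells.

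LCE transcripts were nearly confined to 2 barcodes of the ZT0 library. That library had 361 LCE UMIs (212 of LCE1 genes and 149 of LCE3 genes) in 13 barcodes, and 96.7% of them lay in those 2. The ZT12 library had 48, all of LCE3 genes, in 20 barcodes. LCE proteins are added late to the envelope of skin. Of the 20 genes, 18 share at least 10% of the 50-base windows in the last 500 bases of their transcript with another LCE gene, so the split of UMIs among them is uncertain and sums are the safer value. No gene of the table is named Lce2, and Lce6a had 0 UMIs.

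The first LCE-rich barcode had only 709 UMIs and 162 genes and was removed by the filter on cells. Of its UMIs, 295 (41.6%) came from the late envelope genes, with 27 of the 34 detected. It had 170 LCE1 and 26 LCE3 UMIs over 18 LCE genes, with Lce1i (31), Lce1l (27), Lce1b (23) and Lce1a2 (20) the most counted, beside 50 UMIs of Lor and 12 of Cdsn. Among its keratins were Krt13 with 68 UMIs, Krt76 with 10, Krt16 with 5 and Krt4 with 1, and Krt5 and Krt14 had 0. The second had 3696 UMIs and 791 genes and fell in the unnamed cluster of low-UMI cells. It had 39 LCE1 UMIs, 32 of them Lce1f, and 114 LCE3 UMIs, 71 of them Lce3c. It also had 106 UMIs of Rptn, 104 of Crct1, 87 of Lor, 25 of Kprp and 17 of Cdsn, and its hair keratin Krt36 had 19. Its Krt13 had 63 UMIs and its Krt16 34, and Krt76 had 0. The second also had 394 UMIs of 2310046K23Rik and 67 of Defb4, against 25 and 0 in the first. Both genes are among the leading ones of the larger filiform cluster and of the low-UMI cluster. Krt13 was counted in both barcodes, with mostly LCE1 in the first and mostly LCE3, with Rptn, in the second. The part of free RNA in these Krt13 counts was not tested. Another barcode of the low-UMI cluster (3333 UMIs) had 176 UMIs of Lor, 58 of Cnfn and 24 of Crct1, and 2 LCE UMIs. The low-UMI cluster had 858 UMIs of the 34 genes at ZT0, 97.0% of them in these 2 barcodes, and 39 at ZT12.

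At ZT12 the LCE3 signal was 46 Lce3c UMIs in 19 cells and 2 UMIs of other LCE3 genes. One basal-like cell (20952 UMIs, 129 of Krt5) had 16 Lce3c UMIs and no other gene of the set. One cornifying-like cell (68279 UMIs) had 11, beside 285 of Crct1. Krt76 cells had 0 Lce3c UMIs at both times, and filiform-like cells 3 and 7. Lce3c was therefore read in single cells of different classes and not in one class.

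Other genes of the envelope and its regulation were taken as lists beside the set. Over all cells, 4 of 15 SPRR genes reached 5 CPM and Sprr2a3 was called higher at ZT0 (36.0 and 2.34 CPM). Of its 1773 UMIs at ZT0, 1580 lay in the unnamed clusters, of which cluster 11 had 162 cells at ZT0 and 2 at ZT12. It is a gene with near-identical copies among which reads may be split. None of 10 cross-linking and scaffold genes (Tgm1, Tgm3, Dsp and others) and none of the 11 of 12 barrier lipid genes tested were called. Among peptidases and their inhibitors, 12 of 16 were tested and Ctsl, the cathepsin L gene, was called higher at ZT12 (27.7 and 59.9 CPM). Of 15 tested regulators of late differentiation, Hopx, a homeodomain gene of differentiating keratinocytes, was called higher at ZT0 (460 and 199 CPM). In Krt76 cells Ehf, which encodes an epithelial ETS factor, was called higher at ZT12 (76.2 and 185 CPM), and no other gene of the lists was called. In cornifying-like cells 4 list genes were called higher at ZT0: Hopx (1203 and 335 CPM), the kallikrein gene Klk14 (32.9 and 9.37 CPM), Sprr2a3 (10.2 and 0.223 CPM) and Padi1 (13.3 and 4.24 CPM), which encodes an arginine deiminase. Sprr1b (8.44 and 56.5 CPM) and Ctsl (7.10 and 16.3 CPM) were called higher at ZT12 there. Of the 2709 Hopx UMIs of the cornifying-like cells at ZT0, the Sprr3-rich ones described above had 473, 565, 288, 357 and 264. At ZT12 the Sprr3-rich ones had 137, 118, 73 and 28 of 1500. Whether Hopx would be called without those cells was not tested. In filiform-like cells Hopx (708 and 285 CPM), Serpinb12 (87.1 and 17.6 CPM) and Klk14 (26.4 and 9.88 CPM) were called higher at ZT0 and none at ZT12. Genes outside the naming rule, such as Sprr2a3 and Padi1, are named after their values were seen. The shares of all genes called in each class are those given above.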

How the data were processed

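The deposited files hold whole-number UMI counts per gene and barcode, as the authors' Cell Ranger run gave them. The submitters' processing notes name Cell Ranger 2.1.1 and mm10 and the matrix headers, per the file headers, Cell Ranger 4.0.0, which was not settled; the annotation release: not given in the sources used here. Counts were used as deposited, with no correction for free RNA. A barcode was kept at 500 genes or more and less than 10% of UMIs from mitochondrial genes. Scrublet in scanpy 1.11.5 called 4 and 8 barcodes doublets (0.25% and 0.30% of those kept), so doublets were in effect not removed. Cells of both libraries were clustered (2000 variable genes without the 34, of which 12 would have been among them, 30 components, 15 neighbours, Leiden resolution 1.0 in leidenalg 0.10.2) into 21 clusters. Limits for naming classes were set after the clusters were seen. Libraries were compared by summed CPM with exact conditional binomial 95% intervals, and shares with Clopper-Pearson intervals after thinning to 5000 UMIs, which left out 72 and 75 cells. The size rule was tested on simulated sums with counting error only. That test does not cover spread between cells or between libraries. Scaling was checked with edgeR 4.0.16. The genes, lists and naming rule (values for genes with at least 50 UMIs; for other lists at most 2 genes, those of largest ratio with a mean of at least 20 CPM) were chosen with earlier results of these data known. LCE genes named in single barcodes, the Flg and Sprr3 splits, and the genes printed with them were chosen after the values were seen, as were the alternatives that leave out the richest cell or the Sprr3-rich cells.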

Additional observations from a re-analysis of the deposited data

Results flagged for a closer look

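Barcodes that the filter on cells removed held LCE transcripts in the ZT0 library, a signal outside the cells compared. The 133 ZT0 barcodes left out, with 570729 UMIs, had 170 LCE1 UMIs, against 42 in the cells kept. They had 27 LCE3 UMIs, against 122 in the cells. A count of 3 in the same barcodes would be 5.26 CPM, and the LCE1 and LCE3 levels were 298 and 47.3 CPM. The 199 ZT12 barcodes left out, with 841989 UMIs, had 0 of either. All 170 LCE1 UMIs and 26 of the 27 LCE3 UMIs were in the single barcode of 709 UMIs described above.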

How the results depend on the processing

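No paired analysis was possible because each time has 1 library. Of 210 alternatives for single-gene ratios, 163 kept direction and side of the size rule or moved little. One ratio called by the rule changed sign: Lor in cornifying-like cells, at 0.26 without cells of at least 20 Sprr3 UMIs. Ratios not called changed sign in 12 alternatives, among them Cnfn in cornifying-like cells without the same cells (from -0.34 to 1.27, then called) and Crct1 there at Leiden resolution 0.6 (from 0.19 to -0.90). The count of genes higher at ZT0 over all cells (2) became 1 under a stricter filter (1000 genes, 5% mitochondrial), 4 as a mean over cells, 0 without the 10 richest cells, 1 without cells under 5000 UMIs, 1 without the richest cell, 1 without Sprr3-rich cells and 0 at a minimum of 50 CPM. The median log2 ratio (-0.22) was -0.32 without a filter, -0.10 with the stricter filter, -1.13 as a mean over cells, -0.0885 without the 10 richest cells, -0.0625 without cells under 5000 UMIs and -0.51 at a minimum of 1 CPM. Without the richest cell, the ZT0 count was 1 (from 2) in Krt76 cells and 2 (from 1) in filiform-like cells. In cornifying-like cells it was 4 at Leiden resolution 0.6, 3 with the 34 genes kept for clustering and 0 without Sprr3-rich cells, when the ZT12 count was 2.

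Shares of a gene's UMIs moved with the clusters. Flg in Krt76 cells was 76.1% and 85.8% (ZT0 and ZT12) at resolution 1.5, and 98.9% at ZT0 without cells under 5000 UMIs. Tchh was 88.2% and 87.9% at 0.6, 62.8% and 67.4% at 1.5, and 79.8% and 82.3% without the richest cell. In cornifying-like cells at 0.6, the shares were 67.5% and 92.1% for Crct1, 71.9% and 51.3% for Lor, and 42.1% and 63.8% for Cnfn; Crct1 at 1.5 was 86.1% at ZT12. With the 34 genes kept they were 59.5% for Crct1 at ZT0, 71.4% and 43.5% for Lor and 40.4% for Cnfn at ZT0. Without cells under 5000 UMIs, Crct1 and Lor at ZT0 were 53.8% and 66.4%. Without the richest cell, Crct1 was 34.1% and 72.1%, Lor 45.2% at ZT0 and Cnfn 30.7% and 52.4%. Thinned to 2500 UMIs and to the deeper alternative, Flg was detected in 8.94% and 24.6% of Krt76 cells at ZT12, and Tchh in 50.9% and 73.5% at ZT0 and 40.8% and 63.5% at ZT12. With 1 library per time, no alternative measures the spread between animals. At resolution 1.5 the Krt76 class (18 and 28 cells) and the cornifying class (28 and 85) were too small to compare. Differences of low genes, such as Crnn, Ivl and Kprp, rest on 72 UMIs or fewer in a class.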
